A study of Zea mays with 18 samples.

Results

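The genes described here are those whose transcripts were higher under iron deficiency in both the roots and the shoots of maize. They were chosen by the measured values themselves: a gene is a member when its mean in iron-deficient plants, after adding 0.1 CPM (read counts scaled to a common library size), was at least 1.4 times its mean in iron-sufficient plants in roots and also in shoots, when its deficient mean was at least 2 CPM in each organ, and when every deficient library of an organ lay above every sufficient library of that organ. Of 40690 genes in the count files, 58 met the rule. The rule was met by 1064 genes in roots and by 436 genes in shoots, so the 58 members are 5.45% of the root genes and 13.3% of the shoot genes. Deficient plants are therefore higher than sufficient plants by construction, and the deficiency values below are a description without a test.

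Gene expression had been measured by RNA-seq in 18 libraries, 3 biological replicates in each of 6 groups, all from wild-type plants of the inbred line W22 grown in hydroponic culture for 12 days. Resupplied plants then spent 3 days without iron and the following 24 hours in solution with 0.1 mM FeSO4-EDTA. Deficient plants had 3 days without iron followed by fresh iron-free solution for the same 24 hours, and sufficient plants had iron throughout. Roots and shoots of each condition were collected separately, and the labels do not say whether a root and a shoot library of 1 number came from the same plants or how many plants were pooled, so p-values measure the spread between these libraries.

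Maize, like other grasses, takes up iron by releasing phytosiderophores, small molecules made from nicotianamine that bind ferric iron in the soil, and by importing the iron-phytosiderophore complex through Yellow Stripe transporters. Nicotianamine also carries iron within the plant, and when iron is short the genes of its synthesis, of phytosiderophore release and of iron redistribution are known to be expressed more, under the control of basic helix-loop-helix transcription factors. Which of the members belong to these pathways cannot be said from these data. None of the 40690 identifiers, which carry the prefix Zm00004b, occurs among the 49888 genes of the name table at hand (B73, NAM-5.0), so members are given by identifier with no function, and the lists of iron and strigolactone genes drawn up by symbol could not be used.

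The libraries held 63058129 to 78431980 estimated counts in roots and 69390438 to 84318039 in shoots. All 58 members passed edgeR's filter on low counts in every comparison, while DESeq2 gave an adjusted p to 56 of them within roots. Since no markers could be named, carry-over between the organs was measured with the 50 genes of at least 100 CPM in 1 organ of sufficient plants that were lowest in the other. The 50 root genes reached 0.0729% to 0.189% of their root level in shoot libraries, and the 50 shoot genes reached 0.0148% to 0.138% of their shoot level in root libraries. No member in deficient plants had so uneven a level: the lowest shoot level was 1.18% of the root level, in Zm00004b035027, and the lowest root level was 1.89% of the shoot level, in Zm00004b027833. In whole organs, more cells expressing a gene and more RNA per cell cannot be told apart.

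**Figure D1:**
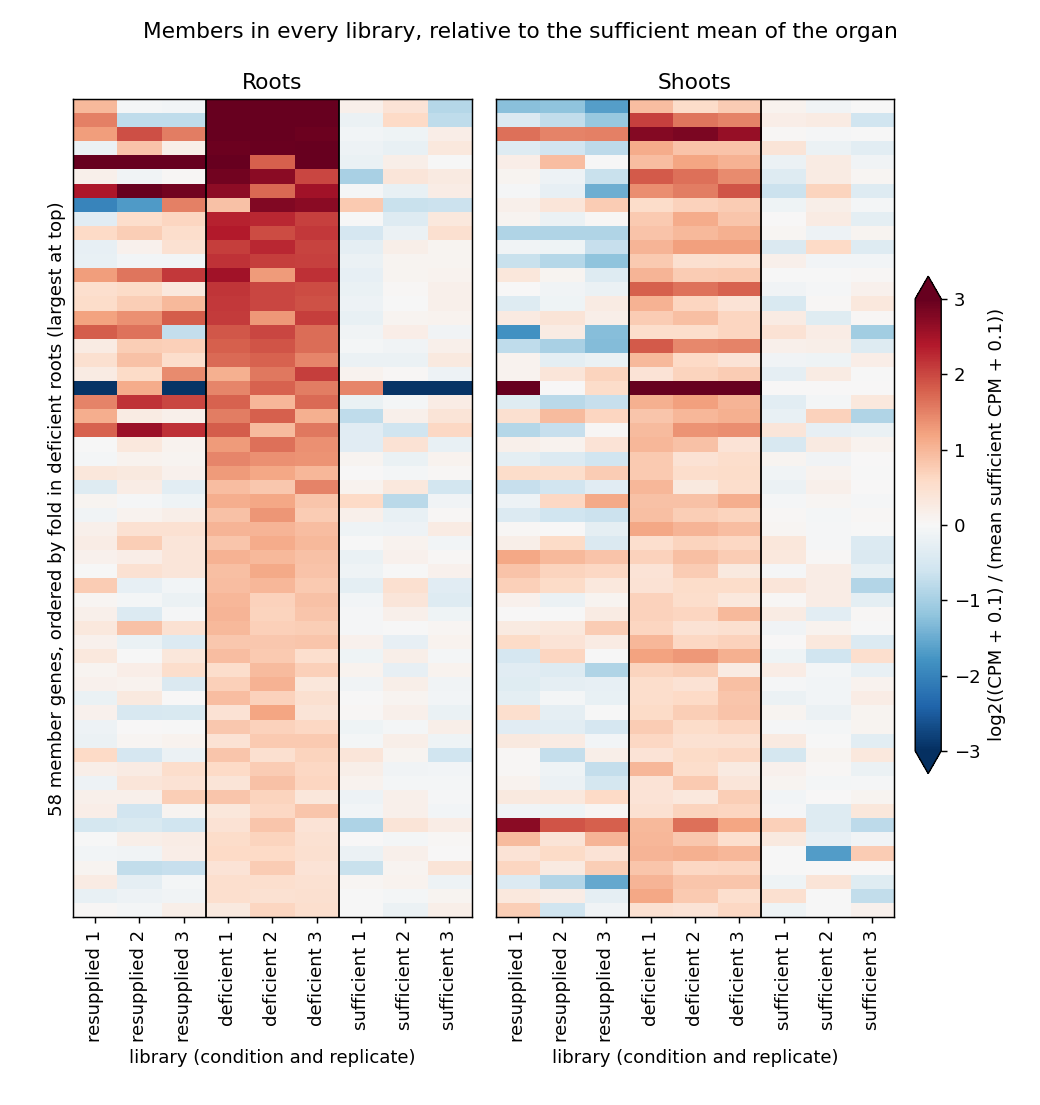
Each row is 1 of the 58 members and each column 1 library, with roots in the left panel and shoots in the right. Colour gives the log2 ratio of CPM + 0.1 to the mean CPM + 0.1 of the 3 sufficient libraries of the organ, limited to 3 on either side. The deficient columns are above the sufficient ones in every row by the rule, while the resupplied columns range from well above the sufficient level to below it.

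Under deficiency the members differed widely in size of response, and for most the response after TMM scaling was larger in roots. In roots the rule's fold had a median of 2.04 and lay between 1.402 and 58.9. In shoots its median was 1.71 and its limits were 1.407 and 24.9. It was larger in roots for 47 members and larger in shoots for 11. With total counts in place of TMM scaling, the median of all genes shifted by -0.04 in roots and by 0.17 in shoots. Members with folds of like size in both organs can therefore change sides with the scaling. How many do so was not counted, nor was the same comparison made over all genes. A fold of at least 2 was reached by 30 members in roots, by 15 in shoots and by 11 in both organs. Across the 58 members the root and shoot log2 folds had a Spearman rho of 0.45 and a Pearson r of 0.30, a description of genes that share their libraries within each organ.

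The rule fixes in advance that the summed level of the members is higher under deficiency in each organ, and the most abundant members weigh most in it. The 58 members held 6235 ± 233 CPM in deficient roots and 2708 ± 164 CPM in sufficient roots. In shoots they held 3698 ± 321 CPM under deficiency and 2027 ± 144 CPM with sufficient iron (SD, n = 3 each). The edgeR test over all genes called 41 of the 58 higher in deficient roots, where 2.08% of genes tested were called higher, and 28 of the 58 in deficient shoots, where the share was 1.26% (52 members with total counts in place of TMM scaling). These calls use the contrast that chose the members, so nothing is read from them. The authors' deposited tables, made with DESeq2, call 46 members higher in roots and 41 in shoots, against 4.14% and 3.25% of the genes with an adjusted p there.

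The thresholds cut through a continuum. In roots the member nearest the limit had a fold of 1.402 and the nearest gene outside it 1.374. In shoots these values were 1.407 and 1.3999. Failing on a single condition, 24 genes missed the root fold, 61 the shoot fold, 6 the root level, 33 the shoot level and 49 the separation of libraries. The lowest deficient means among members were 2.003 CPM in roots and 2.04 CPM in shoots, and 19 members had less than 5 CPM in deficient shoots, where few reads stand behind a value.

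Zm00004b017752 had the largest smaller fold of the 2 organs among the members. In roots it had 223, 219 and 202 CPM in the deficient libraries against 24.9, 23.8 and 30.1 CPM in the sufficient ones, an 8.13-fold difference by the rule. In shoots it had 31.8, 33.1 and 28.6 CPM in deficient libraries against 4.76, 4.53 and 4.58 CPM in sufficient ones, a 6.62-fold difference. Its level was several times higher in roots than in shoots under every condition, while the fold under deficiency was of like size.

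Ranked by the smaller of its root and shoot folds, Zm00004b018316 came next among members with at least 10 CPM in deficient roots. It had 536, 484 and 468 CPM in deficient roots against 105, 124 and 133 CPM in sufficient roots, and 87.0, 77.9 and 85.2 CPM in deficient shoots against 23.1, 24.4 and 27.5 CPM in sufficient shoots. These are folds of 4.11 in roots and 3.33 in shoots. By the same ranking, with at least 10 CPM in deficient shoots, the next after Zm00004b017752 was Zm00004b027833, a gene hardly detected in roots with iron. It had 179, 131 and 121 CPM in deficient shoots against 49.1, 51.3 and 28.2 CPM in sufficient shoots, and 4.12, 2.56 and 1.48 CPM in deficient roots against 0.0497, 0.158 and 0 CPM in sufficient roots.

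The members with the largest root fold and the largest shoot fold each had a far smaller fold in the other organ. Zm00004b018725, with the largest root fold of 58.9, had 22.4, 20.1 and 18.4 CPM in deficient roots against 0.286, 0.364 and 0.0903 CPM in sufficient roots. In shoots it was present in all conditions, with 74.9, 57.9 and 66.8 CPM in deficient libraries against 42.4, 36.5 and 38.9 CPM in sufficient ones, a fold of 1.69. The largest shoot fold, 24.9 with the added 0.1 CPM, belongs to Zm00004b012458, which was chosen for mention after its values were seen. It had 2.98, 1.80 and 2.41 CPM in deficient shoots and no count in any sufficient shoot library, so it was at least 48.0-fold higher against a floor of 3 counts per library. In roots it had 2.021, 2.505 and 2.125 CPM in deficient libraries against 1.999, 0 and 0 CPM in sufficient ones, so it met the rule narrowly there. In resupplied shoots it had 2.71, 0 and 0.0470 CPM. Single libraries thus decide its means in sufficient roots and in resupplied shoots.

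**Figure D2:**
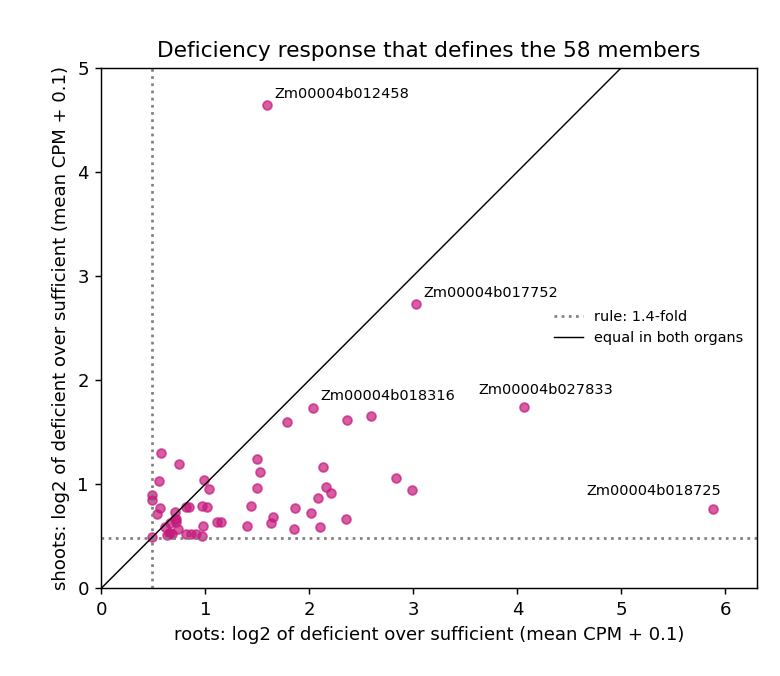
Each point is 1 of the 58 members, with the log2 ratio of deficient to sufficient means, after adding 0.1 CPM, in roots on the horizontal axis and in shoots on the vertical axis. Dotted lines mark the rule's 1.4-fold limit and the solid line equal folds. Of the points, 47 lie below the line of equality, and Zm00004b017752 is high on both axes.

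Resupply with iron for 24 hours lowered about as many members in roots as in shoots, and raised none by the test. The resupplied libraries were not used to choose the members, but the deficient libraries they are set against were, and a high deficient value favours a lower one afterwards. Of the 58 members, 29 fell in resupplied against deficient roots, where 1.74% of 26577 genes tested fell, and 0 rose, where 1.79% of genes rose. In shoots 27 of the 58 fell, where 3.72% of 26318 genes tested fell, and 0 rose, where 4.86% of genes rose. At an unadjusted p under 0.05, 3 members were higher in resupplied roots and 1 in resupplied shoots, while DESeq2 on the same counts called 0 higher among the 56 members with an adjusted p in roots and 0 among 58 in shoots.

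The median log2 fold change of the members on resupply was -0.76 in roots and -0.82 in shoots, against 0.00 over all genes tested in each organ. Every resupplied library lay below every deficient one for 43 members in roots (74.1%, against 13.2% of genes tested) and for 42 in shoots (72.4%, against 13.5%). Every resupplied library lay above every deficient one for 0 members in roots, against 10.1% of genes tested, and for 1 in shoots (1.72%, against 14.4%). The 1006 genes that meet the same rule in roots and not in shoots had a median of -0.50 on resupply, with 27.3% called lower and 0.696% called higher. The 378 that meet it in shoots and not in roots had a median of -0.37, with 21.96% called lower. These lists were chosen on the same deficient libraries in 1 organ and are given beside the members without a test of the difference. The authors' deposited tables call 38 members lower and 1 higher in roots, against 4.71% and 5.33% of genes, and 31 lower and 1 higher in shoots, against 7.21% and 8.97%.

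The members that fell in roots and those that fell in shoots were only partly the same. The test called 17 members lower in both organs, 12 in roots and not in shoots, 10 in shoots and not in roots, and 19 in neither. A call in 1 organ and not in the other does not show that the organs differ, a question taken up below with a test of the difference. In roots the mean of the resupplied libraries lay between those of deficient and sufficient libraries for 39 members, above the deficient mean for 4 and below the sufficient mean for 15. In shoots these numbers were 24, 5 and 29. Neither these positions nor the overlap of calls between organs was counted over all genes, so both only describe the members.

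How far each member went back was expressed as the share of its log2 difference between deficient and sufficient plants that was gone after resupply, where 1 is a full return and values above 1 pass the sufficient level. The median was 0.86 in roots, with an interquartile range of 0.62 to 1.01, and 0.98 in shoots, with 0.44 to 1.41. With each resupplied library taken alone, the median was 0.84, 0.78 and 0.84 in roots and 0.92, 1.08 and 1.06 in shoots. Its extremes were -0.48 and 1.93 among the roots' values, and -0.69 and 2.79 among those of shoots. It was at least 0.75 for 35 members in roots and 36 in shoots, and under 0.25 for 6 members in roots and 9 in shoots. Across the 58 members the root and shoot shares had a Spearman rho of 0.0034. The deficiency difference that chose the members stands in the denominator of this share.

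The largest fall in roots was that of Zm00004b018725. It had 0.580, 0.230 and 0.228 CPM in resupplied roots against 22.4, 20.1 and 18.4 CPM in deficient roots, a log2 fold change of -5.83 ± 0.42 (SE, n = 3 each, edgeR adjusted p = 5.26e-05). The resupplied libraries overlapped the sufficient ones, which had 0.286, 0.364 and 0.0903 CPM. Next among members with at least 10 CPM was Zm00004b005141, with 24.2, 49.0 and 30.7 CPM in resupplied roots against 209, 215 and 227 CPM in deficient roots (log2 fold change -2.62 ± 0.24, adjusted p = 0.000187). It too overlapped the sufficient roots, at 24.5, 23.2 and 34.0 CPM. In the authors' deposited table for roots the log2 fold changes of these genes are -4.25 and -2.36. DESeq2 run here on the deposited counts gave -5.84 and -2.62, so the deposited sizes are not on the same footing.

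In shoots Zm00004b014563 fell most, to 84.3, 72.8 and 57.7 CPM in resupplied libraries, against 509, 385 and 396 CPM in deficient ones (log2 fold change -2.59 ± 0.17, adjusted p = 8.4e-06). Zm00004b027833 had 31.8, 25.6 and 19.3 CPM in resupplied shoots against 179, 131 and 121 CPM in deficient shoots (log2 fold change -2.49 ± 0.24, adjusted p = 8.63e-05). In neither gene did the resupplied and deficient libraries overlap. The authors' deposited table for shoots gives -2.05 and -1.71 for these genes.

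**Figure D3:**
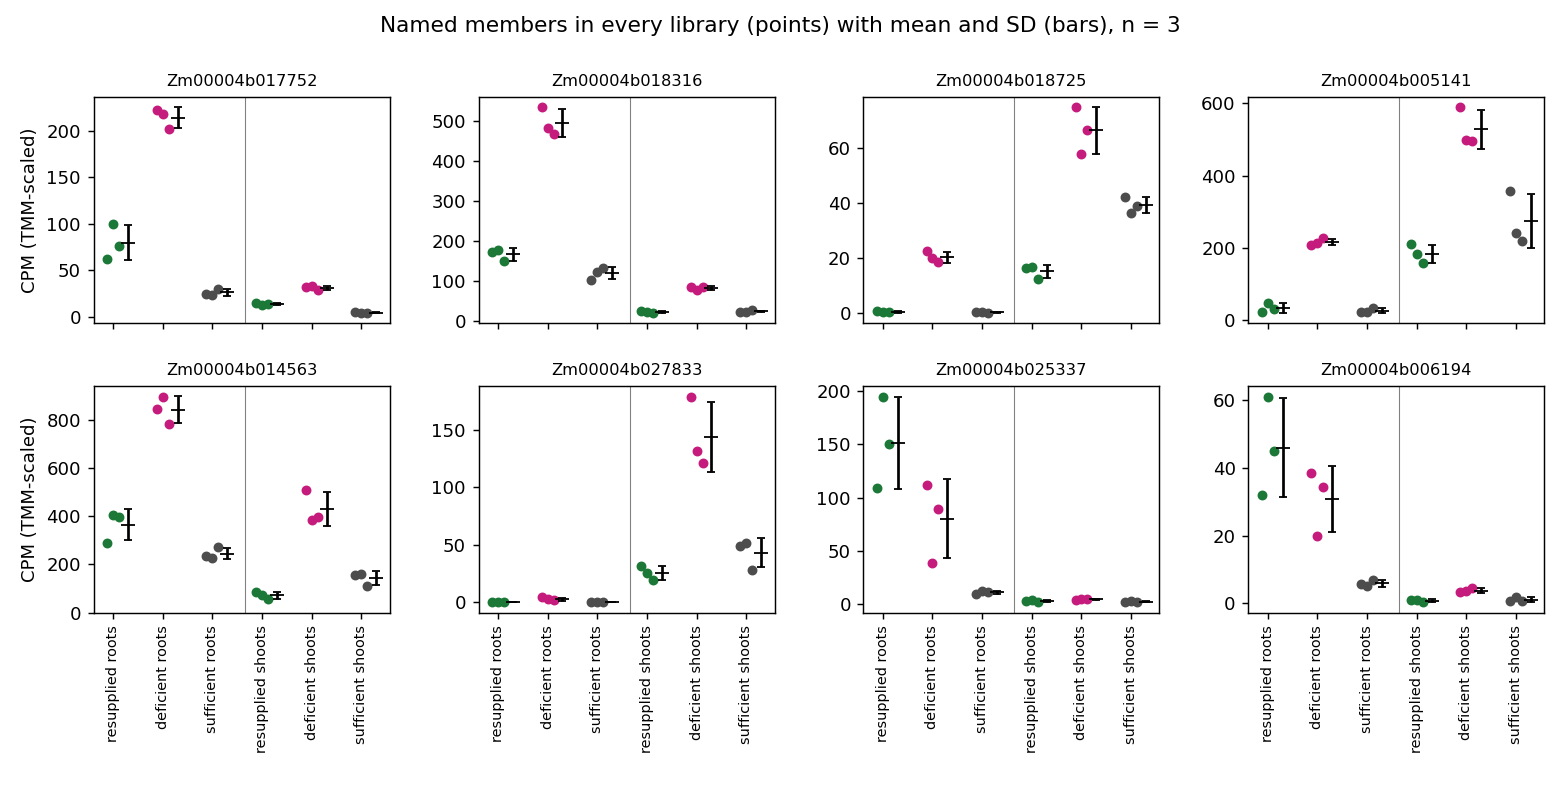
CPM of 8 named members, on a linear axis, in resupplied, deficient and sufficient roots and then shoots. Points are the 3 libraries of a group and the bars beside them the mean ± SD. In 6 of the 8 genes the deficient libraries stand highest in both organs, whereas in Zm00004b025337 and Zm00004b006194 the highest root library is a resupplied one.

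Compared with sufficient plants, some members were called higher in resupplied roots and none lower, while in resupplied shoots some were called higher and others lower. These comparisons share the sufficient libraries with the rule. In roots 8 of the 58 members were called higher, where 0.64% of genes tested were, and 0 were called lower, where 0.102% were. For the lower direction the unadjusted p was under 0.05 for 0 members, and DESeq2 called 0 of 56. The number called higher was 4 without sufficient root library 1 or 2, and 5 without resupplied root library 2. The median log2 difference of the members was 0.24, against 0.00 over all genes. Every resupplied library lay above every sufficient one for 16 members (27.6%, against 7.75% of genes) and below for 1 (1.72%, against 7.69%). The root-rule genes outside the members had 7.55% called higher and a median of 0.28. In the authors' deposited table for roots 14 members are called higher, against 1.97% of genes, and 0 lower, against 0.832%.

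Of the 8, 2 had fallen from the deficient level and 6 did not pass that test. The 2 are Zm00004b017752, at 62.5, 100.1 and 76.5 CPM in resupplied roots, and Zm00004b028385, at 6.11, 6.98 and 8.26 CPM. Zm00004b017752 was 1.61 ± 0.16 log2 units above sufficient roots (SE, adjusted p = 0.00158) after a log2 fold change of -1.396 ± 0.16 from deficient roots (adjusted p = 0.000758), and 0.47 of its log2 difference under deficiency was gone. The other 6 are Zm00004b025337, Zm00004b026584, Zm00004b031000 and a run of consecutive identifiers, Zm00004b006194, Zm00004b006195 and Zm00004b006196. The members outside the naming rule were chosen for mention after their values were seen. Leaving out each of the 6 resupplied and sufficient root libraries in turn, the calls of Zm00004b028385 and Zm00004b026584 were lost in 5 of the 6 fits each, that of Zm00004b006196 in 3 and that of Zm00004b031000 in 2. The calls of Zm00004b017752, Zm00004b025337, Zm00004b006194 and Zm00004b006195 were lost in 0 of the 6.

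Zm00004b025337 was the furthest above sufficient roots. It had 109, 195 and 149.9 CPM in resupplied roots, 112, 39.2 and 89.5 CPM in deficient roots and 9.73, 12.7 and 11.2 CPM in sufficient roots. The resupplied libraries were all above the sufficient ones, by a log2 difference of 3.76 ± 0.36 (adjusted p = 0.00158), and overlapped the deficient ones (log2 fold change 0.94 ± 0.32, adjusted p = 0.137). The authors' deposited table for resupplied against sufficient roots gives it a log2 fold change of 2.89.

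Zm00004b006194 had 32.1, 60.9 and 44.8 CPM in resupplied roots, 38.5, 19.7 and 34.2 CPM in deficient roots and 5.76, 5.03 and 6.96 CPM in sufficient roots. It was 2.96 ± 0.29 log2 units above sufficient roots (adjusted p = 0.00158). Zm00004b006195 had 46.9, 75.7 and 67.7 CPM in resupplied roots against 14.6, 16.0 and 19.6 CPM in sufficient roots. Zm00004b006196 had 42.4, 74.1 and 56.5 CPM against 9.81, 8.13 and 19.2 CPM. In each of the 3 genes library 2 was the highest of the resupplied root libraries and the lowest of the deficient ones. In deficient roots library 2 was the lowest for each of the 6 members that did not pass the test against deficient roots, while it was the lowest for 13 of all 58. This was not counted over all genes. A low deficient library also makes that test harder to pass, so the count of 6 is not independent of how they were set apart. Whether the 3 consecutive genes are copies of each other that could share reads is not known from the files.

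In resupplied against sufficient shoots, 7 members were called higher, where 4.05% of genes tested were, and 9 were called lower, where 5.47% were. The median log2 difference of the members was 0.01, against 0.00 over all genes. Every resupplied library lay above every sufficient one for 9 members (15.5%, against 13.2% of genes) and below for 13 (22.4%, against 14.7%), so by this count the members stood near the background in the higher direction. The shoot-rule genes outside the members had 19.3% called higher, 3.97% called lower and a median of 0.32. In the authors' deposited table for shoots 9 members are called higher and 11 lower, against 7.58% and 8.94% of genes. Without sufficient shoot library 3 the higher calls numbered 2, without resupplied shoot library 3 the lower ones 6, and DESeq2 called 11 higher and 10 lower. With total counts in place of TMM scaling, which shifted the median of all genes by 0.10, the calls were 10 higher and 6 lower, so the larger number changed direction.

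The 9 members called lower had log2 differences from sufficient shoots of -1.36 to -0.39. In these 9 the level with iron restored lay below that of plants that had never lacked it. All 9 had also fallen from the deficient level. That adds nothing, since the rule places the deficient libraries above the sufficient ones. The lowest relative to sufficient shoots was Zm00004b018725, with 16.3, 16.9 and 12.5 CPM in resupplied shoots against 42.4, 36.5 and 38.9 CPM in sufficient shoots (log2 difference -1.36 ± 0.13, SE, adjusted p = 0.000234). Zm00004b014563 had 84.3, 72.8 and 57.7 CPM in resupplied shoots against 157, 160.0 and 109 CPM in sufficient shoots (log2 difference -0.99 ± 0.17, adjusted p = 0.00427). In neither did the groups overlap.

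The 7 members called higher had log2 differences of 0.57 to 2.33, and 1 of them, Zm00004b017752, had fallen from the deficient level. With 14.8, 13.1 and 13.4 CPM in resupplied shoots against 4.76, 4.53 and 4.58 CPM in sufficient shoots, it kept a log2 difference of 1.58 ± 0.10 (adjusted p = 2.87e-05), with a root minus shoot difference of 0.03 (adjusted p = 0.994). It was the only member called higher in both organs. Zm00004b030211 was the next by the naming rule, with 18.7, 14.3 and 20.1 CPM in resupplied shoots against 11.8, 12.0 and 12.0 CPM in sufficient shoots (log2 difference 0.57 ± 0.13, adjusted p = 0.0177). That call was lost without resupplied shoot library 1 or 3 or sufficient shoot library 1 or 3, with an adjusted p of up to 0.0823.

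**Figure D4:**
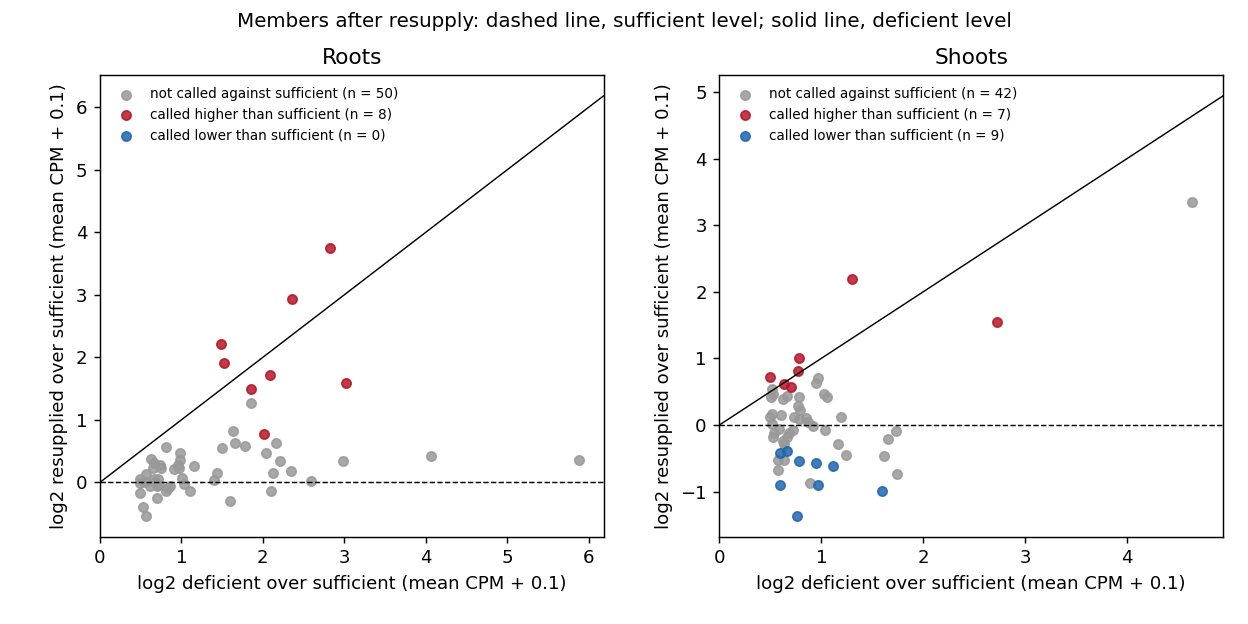
For each of the 58 members, the horizontal axis gives the log2 ratio of deficient to sufficient means and the vertical axis that of resupplied to sufficient means, after adding 0.1 CPM, in roots (left) and shoots (right). Points on the dashed line are back at the sufficient level, points on the solid line are still at the deficient level, and colour marks the call of resupplied against sufficient plants. Roots have 8 members called higher and 0 lower, shoots 7 higher and 9 lower.

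Roots and shoots of resupplied plants were compared directly, and neither group was used to choose the members. The comparison is still not free of the rule, which asked for at least 2 CPM in both organs under deficiency. The genes tested did not have to meet that level. The members' median level was already 33.8 CPM in deficient roots and 8.10 CPM in deficient shoots. The counts below are therefore a description. Of the 58, 37 were called higher in resupplied roots, where 33.6% of 27914 genes tested were, and 13 were called lower, where 32.5% were. For 36 members every root library lay above every shoot library (62.1%, against 36.2% of genes), and for 14 every root library lay below (24.1%, against 35.3%). The median log2 ratio of roots to shoots was 1.64, against 0.00 over all genes. With total counts in place of TMM scaling, the median of all genes shifted by 0.32 and the calls were 40 higher and 11 lower.

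The member leaning most to roots was Zm00004b035027, with 138, 137 and 170.1 CPM in resupplied roots against 1.63, 1.85 and 1.63 CPM in resupplied shoots (log2 fold change 6.44 ± 0.35, adjusted p = 9.07e-11). Zm00004b006194 followed, with 32.1, 60.9 and 44.8 CPM in resupplied roots against 1.14, 0.978 and 0.360 CPM in resupplied shoots (5.78 ± 0.44, adjusted p = 5.39e-09). At the other end, Zm00004b027833 had 0.383, 0 and 0 CPM in resupplied roots against 31.8, 25.6 and 19.3 CPM in resupplied shoots (-7.56 ± 0.68, adjusted p = 4.57e-08). Zm00004b028667 had 0.0812, 0.122 and 1.95 CPM in resupplied roots against 67.6, 78.3 and 103 CPM in resupplied shoots (-6.83 ± 0.77, adjusted p = 6.72e-07). The root values of both genes rest mainly on 1 library, and the fitted change without it, which at or near 0 counts is no bound, was -13.87 for Zm00004b027833 (without resupplied root library 1) and -9.67 for Zm00004b028667 (without library 3). The members thus include genes that lean strongly to either organ, although all had at least 2 CPM in both organs under deficiency.

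The step on resupply was then compared between the organs, as the root log2 change minus the shoot log2 change. This comparison shares the deficient libraries of both organs with the rule, so it is not independent of the choice of members. For 4 members this difference from deficient to resupplied plants was called positive, where 0.659% of genes tested were, and for 5 it was called negative, where 0.792% were. The largest called positive difference was that of Zm00004b006194, 2.76 ± 0.53 log2 units (SE, adjusted p = 0.0149). In roots it did not pass the test against deficient plants (log2 fold change 0.61 ± 0.26, adjusted p = 0.245), whereas in shoots it fell, to 1.14, 0.978 and 0.360 CPM in resupplied libraries, against 3.25, 3.57 and 4.60 CPM in deficient ones (-2.19 ± 0.45, adjusted p = 0.0103). Zm00004b006196 had a difference of 2.498 ± 0.48 (adjusted p = 0.0147), and Zm00004b006195, between them in the list of identifiers, 2.13 ± 0.31 (adjusted p = 0.00273). The call of Zm00004b006196 was lost without resupplied shoot library 2 (adjusted p = 0.0501). The fourth, Zm00004b014563, fell in both organs and more in shoots, with a difference of 1.38 ± 0.25 (adjusted p = 0.0109).

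Among the 5 negative differences, that of Zm00004b018725 was the largest at -3.73 ± 0.38 (adjusted p = 0.000296). It fell by 5.83 log2 units in roots and by 2.13 in shoots. Zm00004b015745 had 18.2, 19.2 and 21.4 CPM in resupplied roots against 34.3, 32.7 and 30.9 CPM in deficient roots, and 3.77, 3.29 and 3.01 CPM in resupplied shoots against 2.70, 3.10 and 2.80 CPM in deficient shoots. Its root libraries did not overlap and its shoot libraries did. The difference of -0.96 ± 0.21 (adjusted p = 0.0358) lost its call in 9 of the 12 fits without 1 library. The number of negative calls was 1 without deficient root library 1 or deficient shoot library 3, and at most 3 in 9 of the 12 fits that each left out 1 library. With total counts the median of all genes shifted by 0.10 and the calls were 5 positive and 3 negative.

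What was left after resupply also differed between organs for a few members. Here the sufficient libraries of both organs are shared with the rule. The root minus shoot difference of resupplied against sufficient plants was called positive for 8 members, where 1.24% of genes tested were, and negative for 1, where 0.269% were. DESeq2 on the same counts called 13 positive and 3 negative, and edgeR with total counts, which shifted the median of all genes by -0.13, called 7 positive and 2 negative. Zm00004b006194 again led, with 3.46 ± 0.56 log2 units (adjusted p = 0.00492), followed by Zm00004b025337 with 3.31 ± 0.47 (adjusted p = 0.00212). In shoots Zm00004b025337 had 2.58, 4.31 and 2.22 CPM in resupplied libraries against 1.97, 2.68 and 2.07 CPM in sufficient ones, groups that overlap, while its resupplied roots were all far above the sufficient ones. The negative difference is that of Zm00004b037784, named because it is a single gene, at -2.87 (adjusted p = 0.0157). It had 5.90, 6.24 and 5.64 CPM in resupplied roots against 4.52, 11.2 and 10.1 CPM in sufficient roots, and 5.84, 3.28 and 3.04 CPM in resupplied shoots against 1.404, 0.601 and 0.425 CPM in sufficient shoots.

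**Figure D5:**
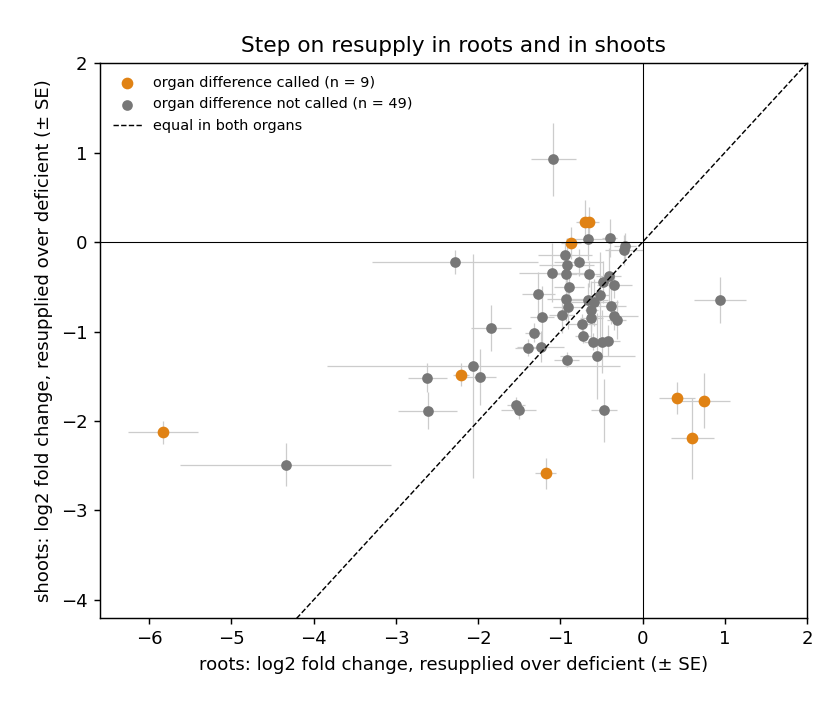
Log2 fold change of resupplied over deficient plants for each of the 58 members in roots (horizontal axis) and shoots (vertical axis), with SE bars. The dashed line marks equal steps, and the 9 orange points are members whose organ difference was called. Most points lie at the lower left, lower in both organs, and 3 of the orange points, the consecutive genes, lie to the right of 0 in roots and below 0 in shoots.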

How the data were processed

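RNA-seq libraries of 3 biological replicates in each of 6 groups were grouped by their titles. The authors deposited estimated counts per gene for each library, whole numbers as deposited, so rounding changed none. Trim Galore, HISAT2 and StringTie, and DESeq2 for the comparisons, are listed in the submitters' processing notes, with no version given. The build and gene annotation were not given in the sources used here. Per comparison, the authors' deposited tables hold, per the file headers, log2 fold changes, their standard errors, p-values before and after adjustment, and a Wald statistic, here called a score. The log2 fold changes and adjusted p-values were used.

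CPM were computed with edgeR 4.0.16 in R 4.3.3 after TMM scaling over all 18 libraries. Tests were edgeR's quasi-likelihood F-test after filterByExpr, over all genes, calling a gene at 0.05 after Benjamini-Hochberg adjustment. The 9 libraries of an organ shared 1 fit, and comparisons between organs used 1 fit of 18. "Rose", "fell" and "called" refer to this test. Standard errors were derived from the F statistic. Per comparison, up to 2 members in each direction were named, if 1 of the groups had a mean of at least 10 CPM. The members and lists were chosen with earlier results of these data known. Steps were tested on simulated data. DESeq2 1.42.0, other scalings, no filter, a robust fit, counts divided by 4, a replicate block and leaving out each library were tried. Of 27 same-number correlations of deviations between libraries, 2 exceeded 0.1 (range -0.10 to 0.12). With 3 libraries a group this cannot exclude that libraries of 1 number were paired, so pairing stays unknown. Counts limit the precision of genes of a few CPM, and no paralog information was at hand, so genes that share reads could not be marked.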

Additional observations from a re-analysis of the deposited data

Results flagged for a closer look

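The difference between organs passed the test for some members. From deficient to resupplied plants, the root minus shoot difference was called positive for 4 members, where 0.659% of genes tested were. It was called negative for 5, where 0.792% were. Single values were 2.76 log2 units for Zm00004b006194, 2.13 for Zm00004b006195, 2.498 for Zm00004b006196, 1.38 for Zm00004b014563, -0.96 for Zm00004b015745 and -3.73 for Zm00004b018725. The call of Zm00004b015745 was lost in 9 of the 12 fits without 1 library, and that of Zm00004b006196 in 1.

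From sufficient to resupplied plants the root minus shoot difference was called positive for 8 members, where 1.24% of genes tested were. It was called negative for 1, where 0.269% were. Single values were 3.46 for Zm00004b006194, 2.54 for Zm00004b006195, 2.71 for Zm00004b006196, 1.57 for Zm00004b014563, 3.31 for Zm00004b025337, 1.67 for Zm00004b026584 and -2.87 for Zm00004b037784. The call of Zm00004b026584 was lost in 9 of the 12 fits without 1 library.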

How the results depend on the processing

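The number of members was 40 with a fold of at least 1.5, 11 with at least 2, 34 with a level of at least 5 CPM and 101 with total-count scaling, of which 51 were among the 58. It was 58 to 89 without 1 library, where the separation of libraries is easier to meet. With the members kept, DESeq2 called 11 higher in resupplied against sufficient shoots, and 13 positive and 3 negative organ differences against sufficient plants. Total-count scaling called 52 higher in deficient shoots (a shift of 0.17 in the median of all genes), 3 negative organ differences against deficient plants and 2 against sufficient plants, and put the median return in shoots at 0.89. With the replicate block 3 negative organ differences against deficient plants were called, and of the 43 calls of named genes that were followed, those of the organ differences of Zm00004b015745 (adjusted p = 0.0575) and Zm00004b026584 (0.0587) and of Zm00004b028385 against sufficient roots (0.0898) were lost. Against sufficient roots, the robust fit lost Zm00004b026584 and Zm00004b006196, and total-count scaling Zm00004b028385.

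Leaving out 1 library at a time, the calls were 31 to 38 higher in deficient roots and 20 to 27 in deficient shoots, 21 to 31 lower in resupplied against deficient roots and 23 to 27 in shoots, and 4 to 10 higher in resupplied against sufficient roots. Against sufficient shoots 2 to 10 were higher and 6 to 9 lower. Between resupplied organs 37 were higher each time and 12 to 14 lower. Organ differences numbered 3 to 5 positive and 1 to 4 negative against deficient plants, and 6 to 9 positive and 1 to 2 negative against sufficient plants. The median return was 0.79 to 0.87 in roots and 0.97 to 1.08 in shoots. The 43 followed calls were lost in 38 of 336 such fits, 24 of them among the 19 calls outside the naming rule, which were followed after seeing the data.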

Other observations

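The run of 3 consecutive identifiers among the members goes on outside the rule. Zm00004b006197 had a mean of 24.1 CPM in resupplied, 9.46 in deficient and 1.17 in sufficient roots, and Zm00004b006198 had 9.99, 6.31 and 1.39 CPM. Both meet the rule in roots. In shoots Zm00004b006197 averaged 0.0132 CPM in resupplied, 0.149 in deficient and 0.0585 in sufficient libraries, and Zm00004b006198 0.636, 0.431 and 0.572 CPM. On the other side, Zm00004b006193 averaged 2.11, 1.98 and 2.28 CPM in resupplied, deficient and sufficient roots. Thus 5 consecutive identifiers had a higher mean in deficient than in sufficient roots and their highest mean in resupplied roots. These neighbours were looked at after the members' values were seen.

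A second pair of consecutive identifiers, Zm00004b028667 and Zm00004b028668, is among the members. In shoots, Zm00004b028668 had 88.3, 106 and 131 CPM in resupplied, 110.2, 132 and 139.7 CPM in deficient and 68.6, 97.2 and 81.5 CPM in sufficient libraries. The resupplied shoot libraries of both genes overlapped those of the deficient and of the sufficient group. Over all members, 5 of 58 (8.62%) had another member directly before or after them in identifier order, beside 76.7% of the 19167 genes with at least 2 CPM in deficient roots and shoots. That share grows with the size of the set, so the shares of sets so unlike in size cannot be compared. Whether members lie closer together than other genes was not tested.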
